A study of Mus musculus with 6 samples.

Results

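The cells described here were the pro-B-labelled cells of the myeloid clusters, in single-cell RNA sequencing of CD11b+ bone marrow cells. Members were the kept cells that lay in cluster 4 or 5 at resolution 0.1 and whose best match in the ImmGen reference was pro-B cells. They were 295 of 69776 kept cells, with 214 in cluster 4 and 81 in cluster 5. The same label was given to 323 cells over all clusters, of which 8 lay in cluster 6, the cluster with 858 cells labelled B cells. Cluster and label had both been set from the expression of these same cells, so every comparison of the members with other cells below is a description without a test.

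A pro-B cell is the early stage of B lymphopoiesis at which the immunoglobulin heavy chain is rearranged. The transcription factors Ebf1 and Pax5 set its identity, Rag1 cuts the gene segments, Dntt adds nucleotides at the joints, Igll1 with Vpreb1 forms the surrogate light chain, and Cd79a with Cd79b carries the receptor signal. Pro-B cells divide fast, as do the promyelocytes that give rise to neutrophils. Promyelocytes fill primary granules with elastase (Elane), myeloperoxidase (Mpo), proteinase 3 (Prtn3) and cathepsin G (Ctsg), and myelocytes later fill secondary granules with lactoferrin (Ltf) and cathelicidin (Camp).

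All mice were C57BL/6 and 2 months old, with no treatment or transgene, and marrow cells were taken by CD11b magnetic beads. Femur-derived cells made up 3 libraries, of which replicate 1 was from a female and replicates 2 and 3 from males, and mandibular-derived cells made up 3 libraries, all from males. The labels name femurs and tibiae as the source of the femur group where the study's methods name femurs alone, and mandibles had their molars taken out and the sockets flushed. The number of mice behind a library was not stated, so the spread between libraries may be partly technical. Libraries held 7763 to 22797 kept cells and 82962160 to 244946998 unique molecular identifiers (UMIs, each a counted transcript molecule). The members came to 59, 27 and 45 cells in femur replicates 1 to 3, and 20, 92 and 52 in mandible replicates 1 to 3. Cluster 5 held only 1 of the members of mandible replicate 1, a cell of 3311 UMIs, and 10 in femur replicate 1 that gave 13504 UMIs together, so cluster 5 levels in these libraries rest on few molecules. A barcode seen in another library was carried by 1000 kept cells, of which 1 was a member. Levels are UMIs per 1000000 summed UMIs (CPM) of a library's cells of one kind. Since 3′ counting carries no length, levels are compared between groups of cells and not between genes.

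Of the defining B genes, Ebf1, Pax5, Cd79a, Igll1 and Rag1 were near 0 in most libraries of the members, against the label, while Dntt was present in part of the cluster 5 members and Cd79b at a low level in members of both clusters. Ebf1 (chromosome 11, 44617317 to 45008091 on mm10) measured 0, 0 and 1.44 CPM in the cluster 4 members of femur replicates 1 to 3, and 2.68, 168 and 18.2 CPM in mandible replicates 1 to 3. The B cells of cluster 6 held a mean of 6199 ± 912 CPM (SD, n = 6), and the other cells of cluster 4 held 3.13 ± 2.28 CPM. Only mandible replicates 2 and 3 stood above the range of the other cells of the cluster. Ebf1 in the cluster 5 members was 0, 15.3 and 12.9 CPM in the femur libraries and 0, 0 and 9.57 CPM in the mandible libraries, from 5 UMIs in all.

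Cd79a, a signalling chain of the B cell receptor (chromosome 7, 24897381 to 24902197), gave 4 UMIs in the 214 members of cluster 4 and 2 UMIs in the 81 members of cluster 5. Its level was 0 CPM in the cluster 4 members of all 3 femur libraries and 2.68, 2.17 and 1.40 CPM in the mandible libraries, where B cells of cluster 6 measured 2044 ± 500 CPM. Rag1 had no UMI in either cluster's members, which by a limit of 3 counts allows a share of cells with a UMI of up to 1.40% in cluster 4 and 3.70% in cluster 5 (counting error only). Pax5 and Igll1 were at 0 UMIs in the cluster 5 members. In the cluster 4 members Pax5 gave 13 UMIs in 3 cells and Igll1 4 UMIs in 4 cells. Dntt was seen in 1 of these 214 members. Among members with 2 or more defining B genes, Vpreb1 had 1 UMI each in cells of femur replicate 1 with 253 and 358 Elane UMIs.

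Of the 9 defining B genes, only 2 reached 10 CPM in the cluster 4 members or in the other cells and could be called. Of these, Cd79b was higher in the members in every library. It reached 10 CPM through the members alone, so being higher was nearly fixed. It measured 23.7, 11.4 and 14.4 CPM in the femur libraries and 10.7, 18.5 and 12.6 CPM in the mandible libraries, against 2.31 ± 1.30 CPM in the other cells of the cluster. No member library overlapped the range of the other cells, which ran from 1.01 to 4.12 CPM. The level stayed far below the 1369 ± 253 CPM of B cells. A Cd79b UMI was seen in 42 of 214 members (19.6%, median depth 18839 UMIs), in 3.42% of the other cells of the cluster (median 21617 UMIs) and in 0.252% of neutrophils of clusters 1 to 3 (median 5528 UMIs). After each cell was thinned to 1000 UMIs these shares were 0.939%, 0.216% and 0.0390%, against 76.3% in B cells.

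**Figure D1:**
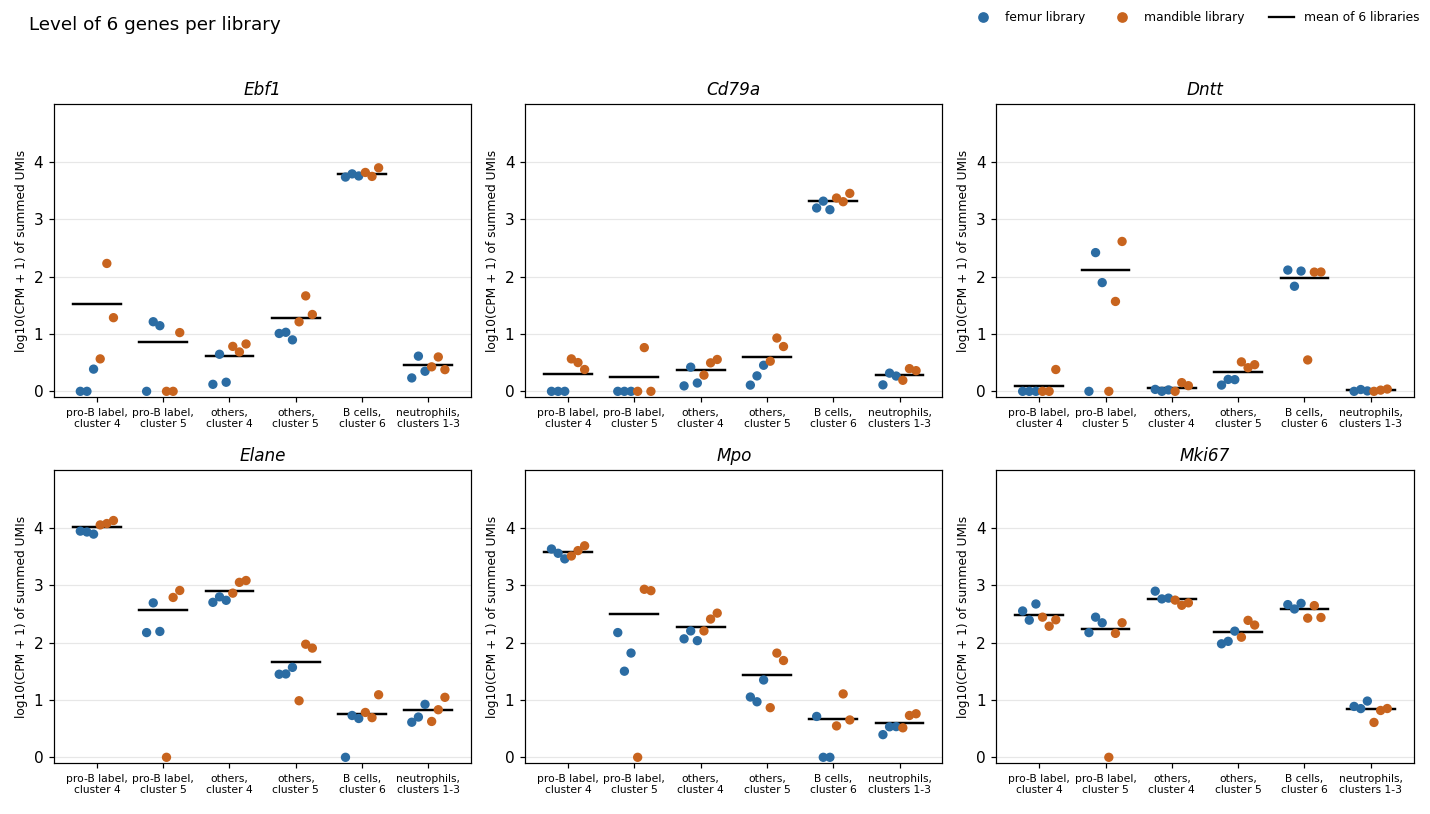
Level of 6 genes per library on a log10(CPM + 1) scale, in pro-B-labelled cells of clusters 4 and 5, the other cells of those clusters, B cells of cluster 6 and neutrophils of clusters 1 to 3. Points are libraries (blue femur, orange mandible) and bars are the log10 of the mean CPM plus 1. Of the groups shown, Ebf1 and Cd79a are highest in B cells in every library, and Elane and Mpo are highest in the cluster 4 members. Stem-labelled cells are not shown apart. The lowest point of the cluster 5 members for Elane, Mpo and Mki67 is the single cell of mandible replicate 1.

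Counted per cell, 162 of the 214 members of cluster 4 had no UMI of any of the 9 defining B genes (Ebf1, Pax5, Cd79a, Cd79b, Vpreb1, Vpreb3, Igll1, Rag1 and Dntt), 44 had 1 of them, 5 had 2 and 3 had 3 or more (1.40%, exact Clopper-Pearson 95% interval 0.290 to 4.04%, which covers counting error only). In cluster 5, 50 of 81 members had none, 26 had 1 and 5 had 2, while 0 had 3 or more, which by the limit of 3 counts allows a share of up to 3.70% (exact 95% upper limit 4.45%). B cells of cluster 6 had 3 or more in 853 of 858 cells (99.4%), and 4 of 33361 neutrophils of clusters 1 to 3 did. At 1000 UMIs per cell, at least 1 defining B gene was seen in 6 of 213 cluster 4 members (2.82%), 8 of 81 cluster 5 members (9.88%), 853 of 857 B cells (99.5%) and 0.324% of neutrophils. In the other cells these shares were 0.473% in cluster 4 and 3.23% in cluster 5 (6.97% and 16.8% as counted). In the stem-labelled cells they were 2 of 89 in cluster 4 (2.25%) and 3 of 100 in cluster 5 (29.2% and 31% as counted). Summed over the 9 genes and pooled over libraries, cluster 4 members were at 0.492% of the B cell level and cluster 5 members at 1.58%.

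**Figure D2:**
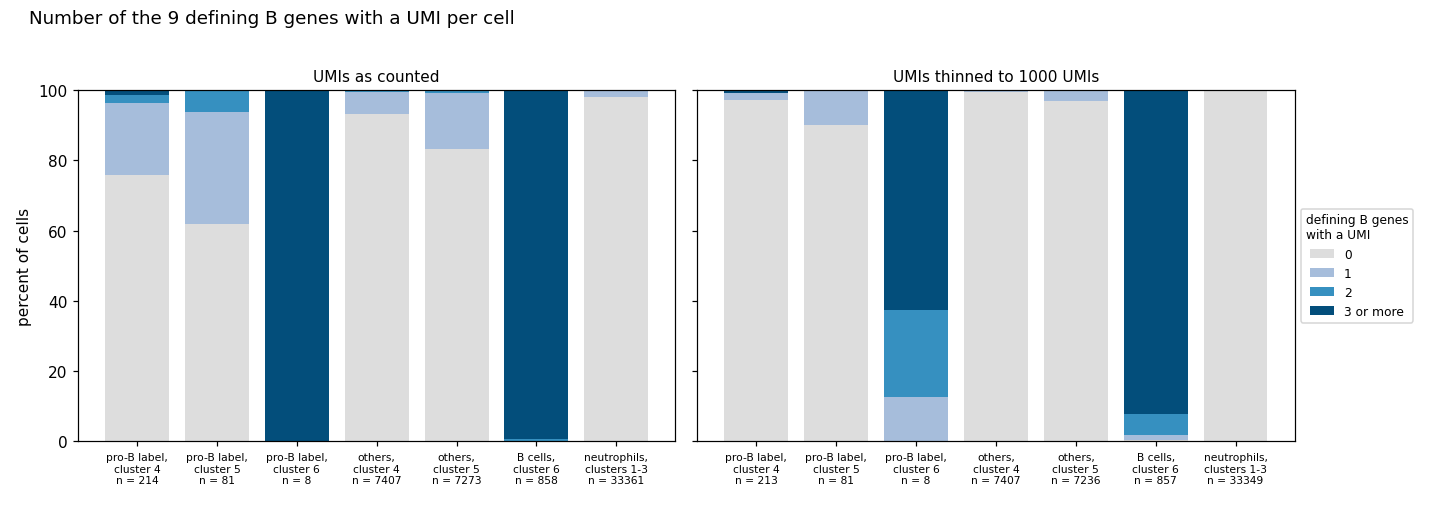
Percent of cells with 0, 1, 2 or 3 or more of the 9 defining B genes, as counted (left) and after thinning to 1000 UMIs per cell (right). Of B cells of cluster 6, 99.4% had 3 or more as counted, against 1.40% of the pro-B-labelled cells of cluster 4 and 0 of 81 in cluster 5.

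Ebf1 in cluster 4 sat mostly in the 3 cells with 3 or more defining B genes. They came from mandible replicate 2 (2 cells) and mandible replicate 3 (1 cell), lay in finer cluster 6 at resolution 0.5, and held 164 of the 170 Ebf1 UMIs of the cluster 4 members, 126 of them in a single cell. Each of the 3 also had Bach2, a B lineage repressor, at 28 to 63 UMIs, and Camp at 32 to 1186 UMIs, and none had an Elane UMI. Their depths were 8647, 25087 and 7809 UMIs, and Vpreb3 had 4, 4 and 0 UMIs in them. Without these 3 cells, Ebf1 in the remaining 211 members was at 1.54 CPM and the sum of the defining B genes went from 67.7 to 18.7 CPM pooled. That sum was 6.84 CPM in the other cells of cluster 4 and 18.6 CPM in its stem-labelled cells. Cd79b was spread wider, with 59 of its 65 UMIs outside these 3 cells. Elane together with 3 or more defining B genes was seen in 7 of the 7407 other cells of cluster 4 and 25 of the 858 B cells. In the cluster 5 members it could not be seen, since none had 3 or more.

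Among the wider B lineage list, 8 of 34 genes reached 10 CPM in the cluster 4 members or in the other cells, 3 were higher and 1 was lower. Higher means above the other cells of the cluster in 6 of 6 libraries with a median log2 ratio of at least 1, which held for 16.7% of the 7583 genes compared (1269 genes). Lower is the same in the other direction and held for 8.81% (668 genes). Bcl11a, a transcription factor shared by B and dendritic precursors, was higher at 68.5 ± 11.8 CPM against 20.9 ± 3.59 CPM, as was Siglecg at 39.5 ± 17.2 CPM against 18.0 ± 2.44 CPM. Bank1, a B cell scaffold protein, was lower at 9.21 ± 2.66 CPM against 28.9 ± 3.08 CPM. On average it reached 10 CPM in the other cells alone. The median log2 ratio of the 8 genes was 0.76, beside 0.14 over all genes compared. Ighm, the mu heavy chain, measured 66.9 ± 30.9 CPM against 44.7 ± 7.82 CPM, a median log2 ratio of 0.38, and neutrophils of clusters 1 to 3 held 89.4 CPM.

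The cluster 4 members carried the primary granule genes of promyelocytes at high level. Elane (chromosome 10, 79886247 to 79888215) measured 8738, 8441 and 7754 CPM in femur replicates 1 to 3 and 11224, 11853 and 13383 CPM in mandible replicates 1 to 3. The other cells of the cluster held 501 to 1204 CPM, so the groups did not overlap, and the median log2 ratio was 3.79. An Elane UMI was present in 183 of 214 members (85.5%) and in 36.3% of the other cells, against 2.91% of B cells of cluster 6 (median depth 3894.5 UMIs). Thinned to 1000 UMIs per cell, the shares were 77.0%, 15.4% and 0.700%.

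Mpo was 4268, 3591 and 2872 CPM in the femur libraries and 3222, 4002 and 4854 CPM in the mandible libraries, with a mean of 186 ± 85.9 CPM in the other cells. Prtn3 averaged 7878 ± 1902 CPM against 606 ± 227 CPM. Ctsg averaged 1632 ± 578 CPM against 68.0 ± 37.8 CPM, the steepest median log2 ratio of the list at 4.53. In these 3 genes, as for Elane, each member library lay above each library of the other cells. Ms4a3, a marker of granulocyte and monocyte progenitors, was also higher, at 1024 ± 102 CPM against 183 ± 12 CPM, and Gfi1, a repressor needed for neutrophil development, at 60.4 ± 14.9 CPM against 27.4 ± 2.17 CPM. In all, 6 of the 8 primary granule genes were higher and 0 were lower, with a median log2 ratio of 3.11. The other two were Fcnb, at 2484 ± 625 against 1422 ± 238 CPM, and Cebpe, at 378 ± 26.7 against 544 ± 28.9 CPM. Elane and Mpo were seen together in 170 of 214 members (79.4%), and in 15.4% of the other cells of cluster 4. In the 89 stem-labelled cells of the cluster that share was 89.9%. Against those cells the list had a median log2 ratio of 0.20, with 0 of 8 genes higher.

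Genes of later granules went the other way. Of the 6 secondary granule genes, 5 were lower and 0 higher, with a median log2 ratio of -1.91. Ltf measured 1693 ± 923 CPM in the cluster 4 members against 8147 ± 572 CPM in the other cells, Lcn2 2934 ± 1412 against 11448 ± 435 CPM and Ngp 11470 ± 3803 against 33183 ± 1165 CPM. Camp was present at 24685 ± 5122 CPM against 43800 ± 2468 CPM, a median log2 ratio of -0.80 that did not reach 1. Of the 6 mature neutrophil genes, 5 were lower (Il1b, Cxcr2, Mmp8, Mmp9 and Retnlg), with a median of -3.07. Mmp8, the neutrophil collagenase, was at 37.5 ± 26.6 CPM against 331 ± 137 CPM.

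**Figure D3:**
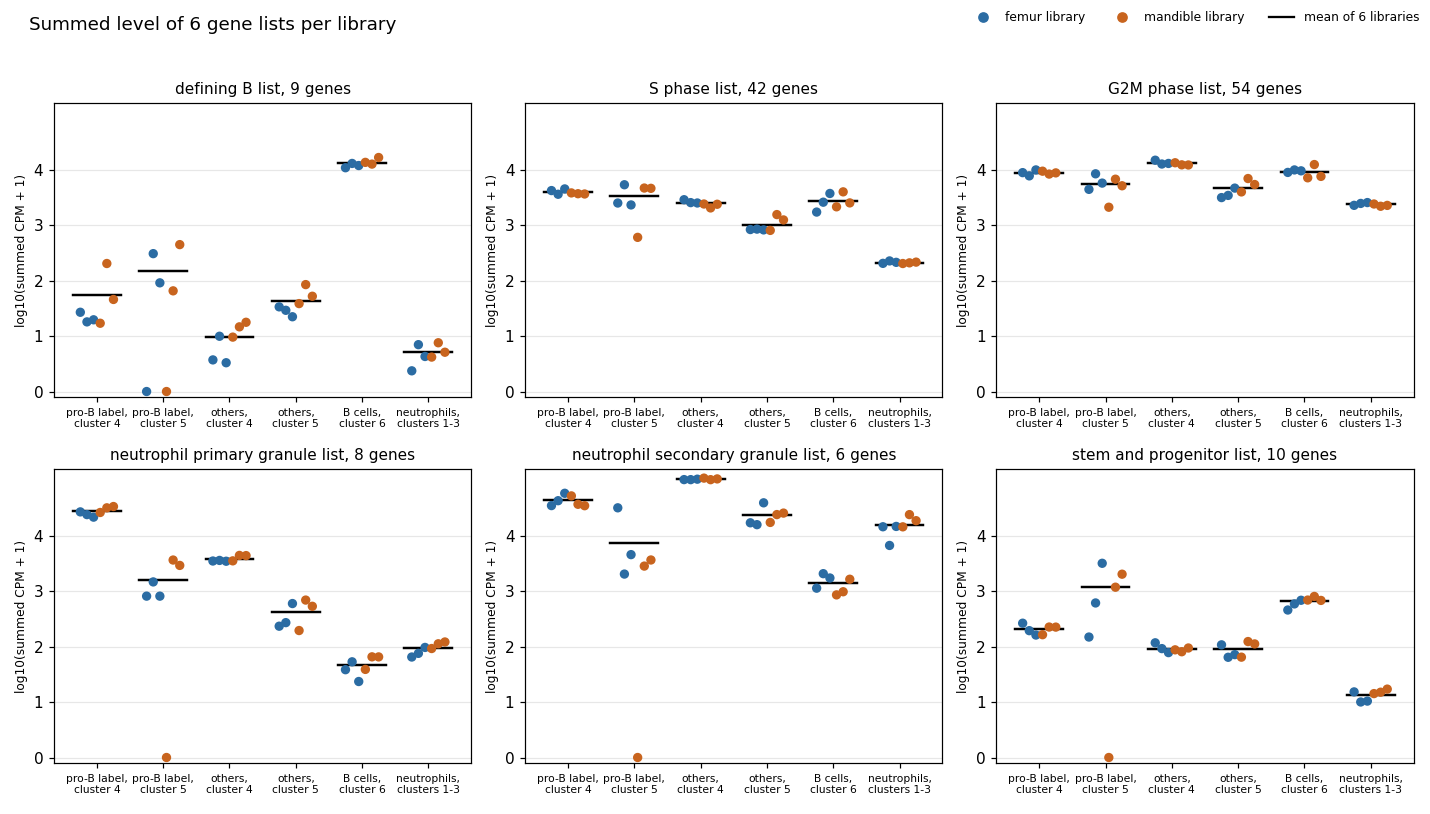
Summed CPM of 6 gene lists per library on a log10(CPM + 1) scale, in the same 6 groups of cells, with libraries as points and the mean of 6 libraries as a bar. The defining B list is low in both groups of pro-B-labelled cells. Of the groups shown, the primary granule list is highest in those of cluster 4 (27490 CPM on average, 3823 CPM in the other cells). The stem and progenitor list is on average highest, of the groups shown, in those of cluster 5. Stem-labelled cells are not shown apart.

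The cluster 4 members were dividing cells by gene content, with more of S phase and less of G2M phase than the cells around them. The deposited phase calls put 150 in S, 63 in G2M and 1 in G1, so 99.5% were in S or G2M, as were 98.8% of the other cells of the cluster. The 42 S phase genes summed to 3930 ± 364 CPM in the members against 2473 ± 272 CPM in the other cells. The 54 G2M genes summed to 8883 ± 770 CPM against 13108 ± 990 CPM. In neither list did the 6 member libraries overlap the 6 libraries of the other cells. Of 41 S phase genes compared, 10 were higher and 0 lower (Mcm2, Mcm4, Mcm6 and Gins2 of the replicative helicase, Rpa2, Rfc2, Chaf1b, Hells, Ccne2 and Exo1), and of 53 G2M genes 0 were higher and 10 lower.

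Mki67, the proliferation antigen (chromosome 7, 135689784 to 135716361), was among the lower ones. It measured 354, 245 and 469 CPM in the femur libraries and 276, 191 and 248 CPM in the mandible libraries, against 445 to 785 CPM in the other cells, and was below them in 6 of 6 libraries (median log2 ratio -1.07). Even so 185 of 214 members (86.4%) had a Mki67 UMI, compared with 3.53% of neutrophils of clusters 1 to 3. Pcna, the DNA polymerase clamp, was at 281 ± 32.1 CPM against 160 ± 22.6 CPM, and Top2a at 631 ± 118 CPM against 872 ± 204 CPM. The label was held most often in S phase, by 4.83% of the S phase cells of cluster 4, 1.42% of its G2M cells and 1.14% of its 88 G1 cells.

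The members were also set against other cells of cluster 4 in the same phase. Phase had been called from S and G2M genes, so this matching reduces differences in those lists by construction. Of the 7555 genes compared in this way, 1151 were higher (15.2%) and 576 lower (7.62%). S phase genes then numbered 0 higher and 0 lower (median log2 ratio 0.30), and G2M genes 1 higher and 1 lower (-0.28). The primary granule genes still numbered 6 of 8 higher, with a median of 2.87 in place of 3.11, and the secondary granule genes 5 of 6 lower.

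The cluster 4 members fell into 2 finer clusters at resolution 0.5. Finer cluster 10 held 177 of them, 8.40% of its 2106 cells, and finer cluster 6 held 37, 0.754% of its 4904 cells. Compared with the other 1929 cells of finer cluster 10, the 177 members had 626 genes higher (8.36% of 7490) and 371 lower (4.95%). Elane there averaged 11729 CPM against 3264 CPM, Mpo 4339 against 823 CPM and Ctsg 1849 against 299 CPM. Of the primary granule genes 5 of 8 were higher (median 1.75), of the secondary granule genes 5 of 6 were lower and of the mature neutrophil genes 5 of 6 were lower. No S phase gene of 41 and no G2M gene of 50 differed by this rule, with medians of 0.10 and 0.14. Of 6 B lineage genes compared 0 were higher and Bank1 was lower, so that Cd79b, Bcl11a and Siglecg, higher against the whole cluster, were not higher against finer cluster 10.

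The 37 members in finer cluster 6 had another make-up. Their pooled Elane was 48.4 CPM and Mpo 2.10 CPM, with Camp at 40890 CPM, Ltf at 7806 CPM and Mki67 at 717 CPM. Ebf1 was at 351 CPM pooled, from 167 UMIs in 6 cells, and Bach2 at 286 CPM, the 3 cells with several defining B genes being among them. A further cell of this finer cluster, from mandible replicate 3, had 82 UMIs of Ly6d, 80 of Irf8 and 22 of Siglech, genes shared by lymphoid and plasmacytoid dendritic precursors. Members of finer cluster 6 were 10.2, 22.2 and 32.4% of the cluster 4 members in the femur libraries and 21.1, 12.3 and 14.7% in the mandible libraries, with overlap between sites.

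The cells of cluster 4 labelled stem cells numbered 89, with 5 and 7 of them in femur replicates 1 and 2, so genes of low level could hardly be called against them. By the same rule, 5 of 7647 genes were higher in the members (0.0654%: Atp1b1, Aff2, Per2, Pilra and Fpr2) and 9 were lower (0.118%: Ms4a6c, Bex6, F13a1, Zfp955a, Gm43305, Tram2, Alkbh6, Prex1 and Ube2cbp). These 14 genes are named because they were few, after their values were seen. No gene of the primary granule, S phase, G2M or B lineage lists was among them. Elane with Mpo was seen in 89.9% of the stem-labelled cells. F13a1 and Ms4a6c, which belong to the monocyte list, were the 2 list genes that were lower.

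By size of ratio, among genes higher in 6 of 6 libraries, the top 10 in the cluster 4 members against the rest of the cluster were Mettl1, Ctsg, Smyd2, Apex1, Mpo, Pdia5, Srm, Dmkn, Slc4a8 and Galk1. Mettl1, a tRNA methyltransferase, averaged 27.0 ± 8.77 CPM against 1.38 ± 1.17 CPM (median log2 ratio 4.76). Apex1, a base excision repair endonuclease, averaged 42.4 ± 12.1 CPM against 2.38 ± 1.81 CPM, and Srm, spermidine synthase, 55.4 ± 17.6 CPM against 3.38 ± 2.81 CPM. All but Ctsg and Mpo averaged under 10 CPM in the other cells and were compared only through the members, so being higher was nearly fixed. None of the 10 is a B lineage gene of the list. The 10 with the lowest ratios were Arg2, Scrg1, Lilra6, Pknox2, Pabpc1l, Acod1, Rin2, Rsad2, Cdc25b and Cstdc4. Each was at 0 CPM in at least 1 member library, where the ratio rests on the prior of 2 UMIs scaled to the sum. Each averaged under 10 CPM in the members and was compared only through the other cells, so being lower was nearly fixed. Arg2, mitochondrial arginase, was at 0.919 ± 1.46 CPM against 21.7 ± 5.10 CPM, and Acod1, which makes itaconate, at 1.63 ± 2.26 CPM against 16.8 ± 5.52 CPM. Arg2 was at 0 CPM in femur replicates 2 and 3 and mandible replicates 1 and 3, so its median log2 ratio of -6.27 rests on that prior. Srm was the one of these 20 genes farthest from the stem-labelled cells after Pabpc1l, at a median log2 ratio of -0.65 beside -0.79.

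Among markers of other cell types, Nkg7 was higher in the cluster 4 members than in the other cells of the cluster. This granule membrane protein, known from cytotoxic lymphocytes, was at 640, 617 and 526 CPM in the femur libraries and 694, 795 and 778 CPM in the mandible libraries, against 64.1 to 102 CPM in the other cells. The stem-labelled cells of cluster 4 held 486 to 742 CPM, which overlaps the members (median log2 ratio 0.24). Of the other 8 genes of the T and NK list, 5 had no UMI and the rest stayed under 10 CPM, Cd3e, Cd3g, Ncr1, Il2rb and Gzma being at 0. Myb, a transcription factor of dividing progenitors, was higher at 128 ± 24.0 CPM against 49.2 ± 5.50 CPM, and Kit, the stem cell factor receptor, was at 49.7 ± 13.9 CPM against 26.4 ± 6.95 CPM (median log2 ratio 0.95). Cd34 was near 0, with 13 UMIs in 8 cells. The conventional dendritic list summed to 2.80 to 11.9 CPM over libraries, the megakaryocyte list to 0 to 4.31 CPM with Pf4 and Ppbp at 0, the erythroid list to 2.88 to 16.3 CPM, the basophil, mast and eosinophil list to 2.68 to 28.4 CPM and the bone, stroma and tooth list to 0 to 7.01 CPM. Hba-a2 of the erythroid list was lower, at 1.30 ± 2.18 CPM against 12.1 ± 12.3 CPM, and reached 10 CPM in the other cells alone. Bst2, of the plasmacytoid dendritic list, was higher, at 13.4 to 25.0 CPM in 5 libraries and 105 CPM in mandible replicate 3, against 4.87 to 11.3 CPM in the other cells. The plasmacytoid dendritic list summed to 51.8 to 86.8 CPM in 5 libraries and 408 CPM in mandible replicate 3. The monocyte list summed to 1044 to 1509 CPM, mostly Ly6c2 at 1155 ± 95.4 CPM, and none of its 5 genes compared was higher or lower.

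The cluster 5 members were a mixture, and 61.7% of them had no defining B gene. Their finer clusters were 16 (48 cells), 17 (17 cells), 15 (10 cells) and 8 (6 cells). Finer clusters 15 and 8 were shallow, with median depths of 1234.5 and 1465 UMIs per cell, so little can be read from their 16 members. The second reference (MouseRNAseq) called 31 of the 81 monocytes, 14 macrophages and 10 B cells, while for cluster 4 it called 110 monocytes, 89 granulocytes and 3 B cells out of 214. Finer cluster 16 had no single label: of its 361 cells, 73 were labelled stem cells, 49 neutrophils, 48 pro-B cells and 47 basophils.

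**Figure D4:**
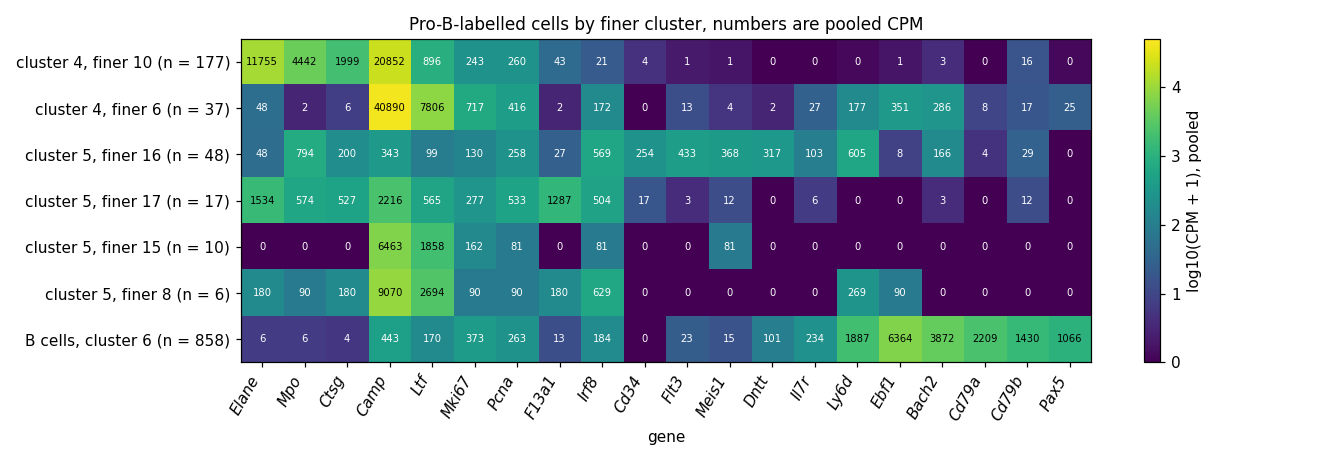
Pooled CPM of 20 genes in pro-B-labelled cells by finer cluster, with B cells of cluster 6 in the last row, coloured on a log10(CPM + 1) scale. Elane is high in finer clusters 10 (11755 CPM) and 17 (1534 CPM), Dntt and Flt3 in finer cluster 16 (317 and 433 CPM), and Cd79a and Pax5 are highest in B cells (2209 and 1066 CPM).

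Dntt, the template-free polymerase of lymphoid progenitors (chromosome 19, 41029275 to 41059525), was the defining B gene with the most UMIs in the cluster 5 members. It measured 0, 261 and 77.5 CPM in the femur libraries and 0, 35.9 and 408 CPM in the mandible libraries. The other cells of cluster 5 held 0.284 to 2.26 CPM and B cells of cluster 6 held 93.3 ± 49.9 CPM, so 4 of 6 member libraries stood above the other cells and 2 were at 0. Its 166 UMIs came from 13 cells (16%, exact 95% interval 8.83 to 25.9%, counting error only), with 64 UMIs in the top cell, while 0.564% of the other cells and 0.0210% of neutrophils had a UMI. All 13 lay in finer cluster 16, 1 each from femur replicates 2 and 3, 5 from mandible replicate 2 and 6 from mandible replicate 3. All 13 also had Flt3, the cytokine receptor of early lymphoid and dendritic progenitors, and 0 of 13 had Elane. Of the 100 stem-labelled cells of cluster 5, 7 had Dntt and all 7 of them had Flt3. Cd79b gave 19 UMIs in 15 of the 81 members (18.5%), and 12.4% of the other cells of cluster 5 had a UMI of it. It was at 0, 30.7 and 0 CPM in the femur libraries and 0, 21.5 and 25.5 CPM in the mandible libraries, which overlaps the 10.7 to 22.0 CPM of the other cells.

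Flt3 itself measured 0, 199 and 246 CPM in the femur libraries and 0, 148 and 427 CPM in the mandible libraries, against 9.53 to 18.5 CPM in the other cells of cluster 5. It was above them in 4 of 6 libraries and at 0 in femur replicate 1 and mandible replicate 1. Il7r, the receptor for interleukin 7 on lymphoid progenitors, came to 56 UMIs in 11 cells. Ly6d, a surface marker shared by lymphoid and plasmacytoid dendritic precursors, came to 320 UMIs in 12 cells. Mandible replicate 2 gave most of these, at 655 CPM. Bcl11a averaged 179 ± 114 CPM against 65.4 ± 12.7 CPM and was above the other cells in 4 of 6 libraries. Bach2 gave 87 UMIs in 22 of the 48 members of finer cluster 16, and Blnk, a B cell adaptor protein, 36 UMIs in 10 of them. Ighm gave 138 UMIs in 26 of those members and 80 UMIs in 16 of the 17 members of finer cluster 17. Beside these, Ebf1 was at 5 UMIs, and Pax5, Igll1, Rag1 and Ms4a1 were at 0. Pooled over libraries, the 34 B lineage genes summed to 1371 CPM in the members against 449 CPM in the other cells of cluster 5, with 0 to 1604 CPM over the member libraries and 299 to 564 CPM over those of the other cells. Of the 13 genes of the list compared Bank1 was lower, and none could be higher in 6 of 6 libraries, since the single cell of mandible replicate 1 had no UMI of the list. A gene absent from that cell counted as lower there wherever the other cells had it.

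Stem and progenitor genes also varied widely over libraries. Cd34 measured 0, 61.3 and 258 CPM in the femur libraries and 0, 117 and 211 CPM in the mandible libraries, against 1.35 to 5.84 CPM in the other cells. Sox4 averaged 257 ± 293 CPM against 9.13 ± 5.07 CPM, and Meis1, a homeobox factor of stem cells, 196 ± 240 CPM against 19.2 ± 7.03 CPM. The 10 genes of the list had a median log2 ratio of 3.02, beside -0.42 over all genes compared, and 0 of 10 were higher in all 6 libraries because mandible replicate 1 gave none of them a UMI. Meis1 was above the other cells in the 5 other libraries. The stem-labelled cells of cluster 5 held the list at 983 to 2431 CPM, where the member libraries ran from 0 to 3192 CPM, and against these cells its median log2 ratio was -0.66 with 0 of 10 genes higher or lower. In finer cluster 16, Flt3 averaged 277 CPM in the members against 80.7 CPM in the other cells of that cluster, Dntt 211 against 45.9 CPM, Cd34 172 against 55.2 CPM and Ebf1 6.94 against 95.7 CPM. The ranges over libraries overlapped for each of these 4 genes. Cpa3, a mast cell and basophil protease, averaged 10.3 CPM in those members against 338 CPM in the other cells, with ranges of 0 to 31.5 CPM and 84.0 to 519 CPM.

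The 17 members in finer cluster 17 were of another kind, with monocyte and primary granule genes. Elane was seen in 16 of them at 1534 CPM pooled, F13a1 in 17 at 1287 CPM, Ly6c2 in 17 at 3176 CPM and Irf8 in 17 at 504 CPM. Dntt, Ebf1, Ly6d and Kit had no UMI in them, and Flt3 had 1. Over all cluster 5 members Elane was 148, 491 and 155 CPM in the femur libraries and 0, 610 and 807 CPM in the mandible libraries, against 8.68 to 92.5 CPM in the other cells. It was above them in every library but mandible replicate 1, and 21 of 81 members (25.9%) had a UMI. Elane and Mpo were seen together in 17 of 81 members (21.0%).

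The cluster 5 members were called cycling more often than the cells around them. Phase calls put 44 in S, 9 in G2M and 28 in G1, so 65.4% were in S or G2M against 16.8% of the other cells of cluster 5. The S phase genes summed to 3360 ± 1837 CPM against 1020 ± 312 CPM, and Mcm6, a helicase subunit, averaged 208 ± 115 CPM against 30.7 ± 12.6 CPM. The G2M genes did not follow, with a median log2 ratio of -0.27 and 0 of 50 higher or lower, and with -0.51 and 3 lower against cells of the same phase. Mki67 measured 148, 276 and 220 CPM in the femur libraries and 0, 143 and 220 CPM in the mandible libraries, which overlaps the 94.1 to 243 CPM of the other cells. The label was held by 8.54% of the S phase cells of cluster 5, 1.19% of its G2M cells and 0.461% of its G1 cells. Against cells of the same phase the median log2 ratio of the S phase list, from whose genes phase was called, went from 1.57 to 0.20.

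The count of higher genes for cluster 5 moved with the small libraries. With all 6 libraries 165 of 9318 genes were higher (1.77%) and 1259 lower (13.5%), 61 (0.657%) and 919 (9.9%) of 9282 against cells of the same phase. A gene without a UMI in the members counts as lower wherever the other cells have one. The smallest sums thus made lower calls easier than higher ones, and the 2 counts cannot be weighed against each other. Without femur replicate 1 the higher count was 268 and without mandible replicate 1 it was 478, while the lower count was 1507 and 1143. In the 5 libraries with over 1 member, and for the 896 genes expected at 3 UMIs or more in each, 140 were higher (15.6%) and 195 lower (21.8%). In that comparison 4 of the 8 primary granule genes qualified and were higher (Elane, Mpo, Prtn3 and Ctsg). So were Mcm6 among 2 S phase genes compared and Meis1 among 3 stem and progenitor genes. Tcf4, the E protein of plasmacytoid dendritic cells, was higher among 3 genes of the plasmacytoid dendritic list. A gene qualified by its level in either group. Elane, Mcm6 and Meis1, which were low in the other cells, qualified through the members, so being higher was nearly fixed by the filter. The same holds for Mpo, Prtn3, Ctsg and Tcf4 so far as they were low in the other cells. None of 3 B lineage genes and none of 6 G2M genes passed, and no defining B gene was abundant enough to be compared.

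Several monocyte and antigen presentation genes were lower in the cluster 5 members. In the same 5 libraries 6 of 10 monocyte genes were lower (Csf1r, Ccr2, Klf4, Fn1, S100a4 and Ctss). Of the 7 conventional dendritic genes 3 qualified and were lower (H2-Aa, H2-Ab1 and Cd74). Over all 6 libraries H2-Aa averaged 28.0 CPM in the members against 698 CPM in the other cells. It thus qualified through the other cells, and being lower was nearly fixed by the filter. Cd74, the invariant chain of MHC class II, was 1037, 0 and 0 CPM in the femur libraries and 0, 67.0 and 6.38 CPM in the mandible libraries, against 901 to 2780 CPM in the other cells. For Cd74 each member library but femur replicate 1 lay below that range, and B cells of cluster 6 held 3121 ± 1024 CPM. Ccr2, the receptor that brings monocytes out of marrow, was 111 ± 68.8 CPM against 753 ± 177 CPM, without overlap. It too qualified through the other cells, so being lower was nearly fixed. The same holds for the remaining genes of both lists so far as they were low in the members.

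Among genes higher in 6 of 6 libraries, the 10 with the largest ratios in the cluster 5 members were Ccnd2, Gimap9, Mif, Pa2g4, Dtymk, Ppp1r14b, Ranbp1, Ncl, Hspd1 and Dnmt1. For 7 of them the level in mandible replicate 1 was a single UMI (302 CPM). Gimap9 averaged 4.43 CPM in the other cells and reached 10 CPM through the members alone. In the 5 libraries with over 1 member, the largest ratios of the genes compared were those of 2610307P16Rik, Mpo and Prtn3 (median log2 ratios 4.35, 3.71 and 3.07). A gene low in the other cells entered that comparison only through the members, which favours such ratios. Ccnd2, the G1 cyclin D2, averaged 179 ± 93.3 CPM against 23.8 ± 9.89 CPM (median log2 ratio 2.96), and Ncl, nucleolin, 697 ± 186 CPM against 171 ± 34 CPM. Among genes lower in 6 of 6, the lowest ratios were those of H2-Eb1, Rap1gap2, Cd74, Pparg, Atf3, Pla2g7, H2-Aa, Sirpb1b, Cxcr2 and Cd300lb. Each of these was at 0 CPM in mandible replicate 1, where a gene absent from the 1 member counts as lower. Rap1gap2, Pparg, Atf3, Sirpb1b, Cxcr2 and Cd300lb averaged under 10 CPM in the members and were compared only through the other cells. Pparg, a lipid-sensing receptor, had no UMI in any of the 81 members against 162 ± 84.7 CPM in the other cells. The member of mandible replicate 1 was called G1 and no member of femur replicate 1 was called G2M, so G2M genes were easily lower in these small sums. Against the 100 stem-labelled cells of cluster 5, 8 of 9636 genes were higher (0.083%) and 180 lower (1.87%), among them 12 of 54 G2M genes, Mki67 and Top2a included. The erythroid list moved with them. Its 6 genes had a median log2 ratio of -4.81, with the globin genes Hbb-bt (-5.96) and Hba-a2 (-5.22), whose near-identical copies make their counts uncertain, lower, and it summed to 0 to 2759 CPM in the member libraries against 133 to 22570 CPM in the stem-labelled cells. Cpox (-3.07), Fech (-2.41) and Alad (-2.26), enzymes of haem synthesis, were also lower, and the part of erythroid cells in the G2M difference was not tested.

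Single cells carried several markers of other cell types in cluster 5. The 1 member of mandible replicate 1 had the platelet factor Pf4 at 35941 CPM and Ppbp at 7853 CPM, and mandible replicate 2 had Pf4 at 1016 CPM. All 896 Prg2 UMIs, an eosinophil granule protein, came from a cell of mandible replicate 2, and 239 of 240 Col1a1 UMIs, the bone collagen, from a cell of femur replicate 3. Summed by library, the megakaryocyte list ran from 0 to 44397 CPM, the basophil, mast and eosinophil list from 0 to 2236 CPM, the bone, stroma and tooth list from 0 to 4911 CPM and the erythroid list from 0 to 2759 CPM, with Ms4a2 and Enam at 0. The T and NK list reached at most 98.0 CPM, with 5 of its 9 genes at 0. The part of such cells in the levels above was not tested beyond the values by library. Members with 5000 or more genes, which may be doublets, were 17 in cluster 4 and 12 in cluster 5.

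Whether the pro-B-labelled cells differed between skeletal sites was not fixed by their choice and could be tested. They made up 0.575, 0.233 and 0.197% of the kept cells in femur replicates 1 to 3 and 0.233, 1.05 and 0.670% in mandible replicates 1 to 3. The mandibular mean was 0.316 percentage points higher, and the sites overlapped (2-sided exact permutation test, p = 0.2, adjusted p = 0.4 over 4 shares). The smallest p that 3 against 3 libraries allow is 0.10.

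Within cluster 4 the share was 4.31, 1.98 and 1.24% in the femur libraries and 3.02, 5.08 and 4.09% in the mandible libraries, a difference of 1.55 points (exact permutation p = 0.3, adjusted p = 0.4). Within cluster 5 it was 0.941, 0.630 and 0.554% and 0.105, 2.70 and 1.54%, a difference of 0.738 points (exact permutation p = 0.4, adjusted p = 0.4). The members called S or G2M were 89.1 ± 4.02% in femur libraries and 91.5 ± 3.09% in mandible libraries (exact permutation p = 0.4, adjusted p = 0.4). Libraries that share the number 6 in their name differed, mandible minus femur, by 7.41e-05, 1.04, -0.525 and 9.81 points for the 4 shares in this order, and those that share 7 by 0.854, 3.84, 2.14 and 0.242 points. Only the cluster 5 share went in opposite directions in these pairs.

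**Figure D5:**
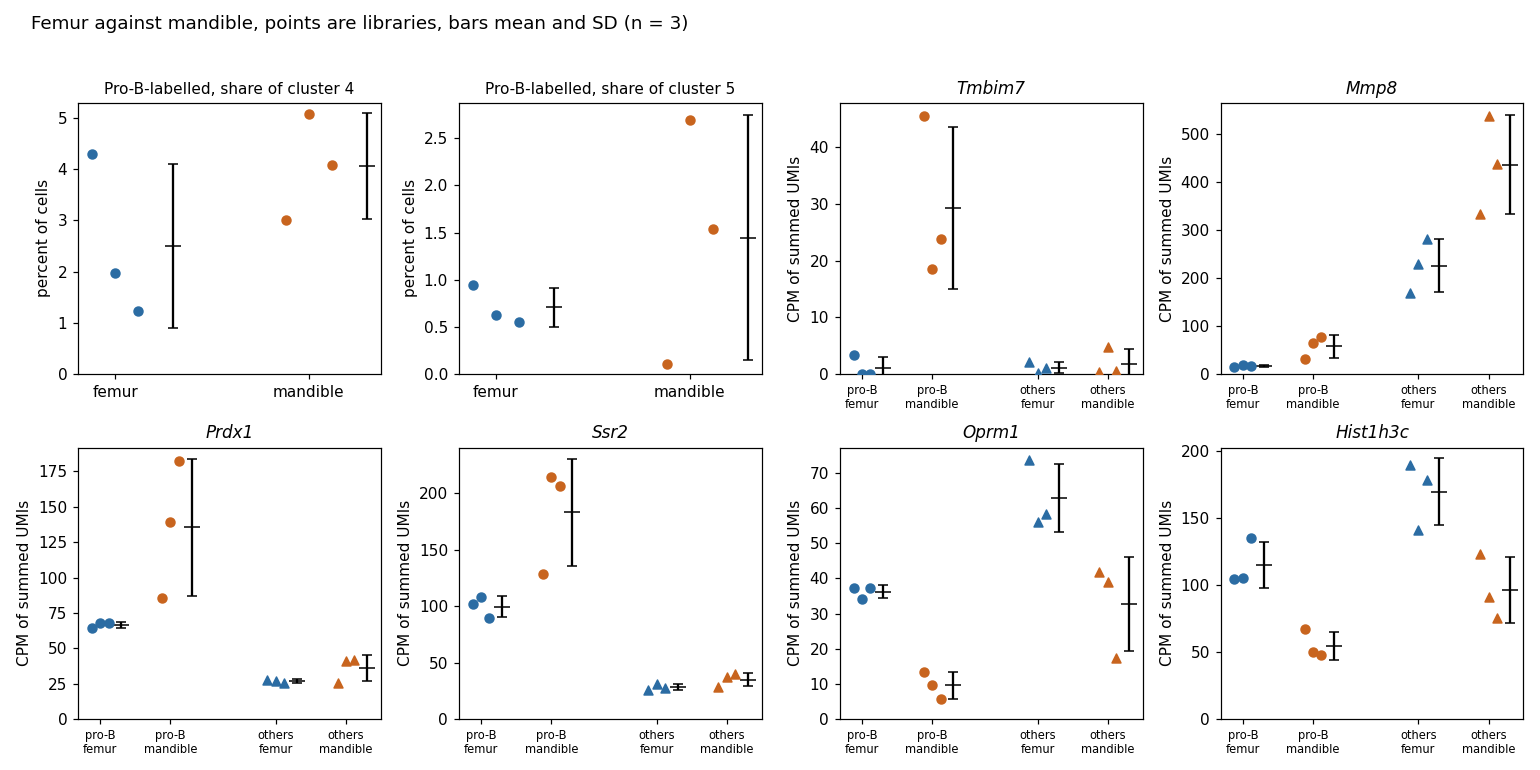
Femur against mandible in pro-B-labelled cells (circles) and the other cells of cluster 4 (triangles), with libraries as points and the mean and SD of 3 libraries as bars. The first 2 panels give the percent of cells with the label, where sites overlap. The other 6 panels give CPM of genes chosen for passing the edgeR threshold without overlap between sites in the cluster 4 members. Of all genes tested there, 14.6% did not overlap. Mmp8, Oprm1 and Hist1h3c separate the sites in both groups of cells. Tmbim7, Prdx1 and Ssr2 separate the sites in the pro-B-labelled cells, as their choice required, and overlap in the other cells, for which no gene was chosen. The difference between the groups of cells was not tested.

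Summed over both clusters, 0 of 7167 genes passed a false discovery rate of 0.05 between sites by edgeR's quasi-likelihood test (0%), where 724 had an unadjusted p under 0.05 and DESeq2 called 1 gene. With the replicate numbers of the titles as a block, 11 genes passed, all higher in the mandible. Without mandible replicate 1 the count was 317, and without mandible replicate 3 it was 2. Groups did not overlap for 827 genes (11.5%). The lowest p-values belonged to Oprm1, Hist1h3c and Gm33148 on the femur side, and Coro2a, Idh2 and Mmp8 on the mandible side. Idh2, mitochondrial isocitrate dehydrogenase, was at 44.4, 55.2 and 40.1 CPM in the femur libraries and 63.7, 117 and 125 CPM in the mandible libraries (edgeR adjusted p = 0.349). Coro2a, of the actin-binding coronins, was at 9.42 ± 5.29 CPM against 43.2 ± 22.7 CPM (edgeR adjusted p = 0.301). The sums over both clusters differ in make-up, since cluster 5 members gave 1.5, 15.6 and 10.0% of their UMIs in the femur libraries and 0.879, 31.2 and 30.5% in the mandible libraries. In the cluster 5 members Coro2a was at 0, 30.7 and 51.7 CPM and at 0, 117 and 147 CPM. In the members of finer cluster 10 it averaged 7.21 ± 4.19 CPM in femur and 17.3 ± 4.47 CPM in mandible libraries. The part of this make-up in the site values was not tested.

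In the cluster 4 members alone 7 of 6380 genes passed (0.11%), 5 higher and 2 lower in the mandible, and 795 had an unadjusted p under 0.05. The count was 0 without femur replicate 1, the female library, 14 without femur replicate 2, 69 without mandible replicate 1, 3 without mandible replicate 3 and 1 by DESeq2. Groups did not overlap for 933 genes (14.6%). With under 10 members in femur replicates 2 and 3 and mandible replicate 1, the cluster 5 members were not tested alone.

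Mmp8 (chromosome 9, 7558456 to 7568485), the mature neutrophil gene that was low in the members as a whole, was 14.7, 19.9 and 17.3 CPM in the femur libraries and 32.1, 64.1 and 77.1 CPM in the mandible libraries. A single cell gave 29 of its 59 UMIs in mandible replicate 2 and another 26 of its 55 in mandible replicate 3. It was higher in the mandible by a log2 fold of 1.90 ± 0.31 (SE, edgeR adjusted p = 0.0140). The other cells of cluster 4 also separated, at 168 to 280 CPM against 332 to 537 CPM, and no test was made there. Oprm1, the mu opioid receptor gene (chromosome 10, 6758506 to 7038198), was 37.2, 34.1 and 37.4 CPM in the femur libraries and 13.4, 9.78 and 5.61 CPM in the mandible libraries (log2 fold -1.96 ± 0.37, edgeR adjusted p = 0.0333). It separated in the other cells as well, at 62.8 ± 9.65 CPM against 32.7 ± 13.4 CPM.

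Prdx1, a peroxiredoxin that reduces hydrogen peroxide (chromosome 4, 116685544 to 116700822), was 64.3, 68.2 and 67.6 CPM in the femur libraries and 85.7, 139 and 182 CPM in the mandible libraries (log2 fold 1.11 ± 0.22, edgeR adjusted p = 0.0348). Ssr2, a subunit of the signal sequence receptor of the endoplasmic reticulum, averaged 99.6 ± 9.59 CPM against 183 ± 47.2 CPM (log2 fold 0.96 ± 0.20, edgeR adjusted p = 0.0477). In the other cells of the cluster both genes overlapped between sites, and the difference between the 2 groups of cells was not tested. Hist1h3c, a histone H3 gene whose near-identical copies make its counts uncertain, averaged 115 ± 17.4 CPM in femur libraries against 54.9 ± 10.5 CPM (log2 fold -1.09 ± 0.21, edgeR adjusted p = 0.0348).

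Tmbim7 (chromosome 5, 3651181 to 3680325) rested on 54 UMIs in 7 cells. It was at 3.38, 0 and 0 CPM in the femur libraries and 45.5, 18.5 and 23.8 CPM in the mandible libraries (edgeR adjusted p = 0.0140). A single cell gave all 17 UMIs of mandible replicate 1, and another gave 16 of the 17 of mandible replicate 3. In mandible replicate 2 the top cell gave 8 of 17. A fold is not given, since 2 femur libraries were at 0. The seventh gene, named after its values were seen, was Crip1, at 13.5, 28.4 and 17.3 CPM in the femur libraries and 24.1, 78.2 and 106 CPM in the mandible libraries, which overlap (log2 fold 2.07 ± 0.37, edgeR adjusted p = 0.0155). No gene of the B lineage list was among the 7.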

How the data were processed

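Single-cell 3′ libraries of 3 femur and 3 mandible samples were analysed. The authors deposited raw counts of UMIs per gene and barcode, made with Cell Ranger 7.0.1 on mm10 per the submitters' notes (the matrix header names another version), and a metadata table with counts per cell, the percent of mitochondrial UMIs, cluster numbers, phase calls and SingleR labels. The S and G2M score deposited by the authors was used only through their phase calls. Their filter had been over 600 and under 6000 genes a cell with under 20 percent mitochondrial UMIs, and libraries were then integrated in Seurat (R 4.1.0). Deposited columns of the authors' own comparisons (log2 fold changes, an adjusted p-value and the fraction of cells with the gene per cluster) were not used.

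Raw UMI counts of the members were summed per library. Matrix sums lay within 1% of the metadata for 100% of kept cells. Log2 ratios used a prior of 2 UMIs scaled to the sum, for genes of at least 10 CPM in the higher group. Sites were compared with edgeR 4.0.16 in R 4.3.3 (TMM, filterByExpr, glmQLFTest, Benjamini-Hochberg) or, for shares, with exact permutation tests over 20 assignments. Clopper-Pearson intervals were from scipy 1.17.1. DESeq2 1.42.0 was an alternative. On simulated counts, the all-member fit recovered 36% of 2-fold and 88% of 4-fold changes among 7167 genes, and the cluster 4 fit 54% and 89% among 6380, with 11 and 10 false calls. Between libraries of the same replicate number in the titles, deviations correlated for all members (0.279, 0.143 and 0.135). They did not for the cluster 4 members alone (-0.0328, 0.0233 and 0.0151). Replicate 1 joins a female femur library to a male mandible library, and no label says what the numbers share. Cluster 5 members gave 1.5 and 0.879% of the summed UMIs in replicate 1, 15.6 and 31.2% in replicate 2, and 10.0 and 30.5% in replicate 3. Their part in the correlations was not tested. Cluster 5 members could not be fitted, since only femur replicate 1 among femur libraries had 10 or more.

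Members and gene lists were chosen with earlier results of these data known. Items of the lists that are not reported here were also left out of the lists' counts and sums. Named genes were the 4 given markers, the 9 defining B genes, up to 6 genes a list with the highest level in the members, site genes past the threshold without overlap and of 10 CPM or more (otherwise the 3 lowest p in each direction), and the 10 largest ratios in each direction per cluster (sex-linked transcripts Xist and Tsix and Y-linked genes excepted). Other list genes were named after their values were seen. No doublet caller was run. A member library of cluster 4 held 351725 to 920515 UMIs and one of cluster 5 3311 to 418191, so 1 UMI is worth several CPM in the smallest sums. Gene positions are from GENCODE vM21.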

Additional observations from a re-analysis of the deposited data

How the results depend on the processing

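The 4 shares kept their direction under every alternative run for them, and no p of theirs could pass 0.05 in this design. The count of 0 site genes over all members became 1 with DESeq2 and 282 without the filter on low counts, ranged from 0 to 317 when 1 library was left out, was 11 with the replicate numbers of the titles as a block and 4 with libraries paired by library number as a replicate block. For the cluster 4 members the 7 genes became 1 with DESeq2, 107 without the filter, 19 without members of 5000 or more genes and 1 with the library number block, and ranged from 0 to 69 when 1 library was left out. Their replicate numbers did not pair (correlations -0.0328, 0.0233 and 0.0151), and the replicate block gave 8. The block changed no share's call. Named site genes kept their direction in all 155 refits. For each of them the sites did not overlap in the sums used to choose it, so a reversal was unlikely from the start. Of the refits, 39 of the 77 for cluster 4 members lost the threshold, and 13 of the 78 for all members passed it. The cause was not tested. Fits of cluster 5 members by site were not run. Against cells of the same phase the 165 higher genes of cluster 5 became 61, and with 1 library left out they ranged from 167 to 478. Chosen after seeing the data were 4 alternatives: comparison within finer cluster 10 (626 higher, 371 lower), the deeper genes of cluster 5 (195 lower, with fewer genes compared), the stem-labelled cells, and the cluster 4 members without the cells of 3 or more defining B genes. The mean over libraries of the summed B lineage level of cluster 4 members ran from 232 to 361 CPM over alternatives and that of cluster 5 members from 623 to 1045 CPM. Summed UMIs were fewest in the cluster 5 members of mandible replicate 1 and femur replicate 1.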
